A study of Homo sapiens with 14 samples.

Results

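The genes described are 46 members of a set of targets of the transcription factor ATF4, amino acid transporters and cytosolic tRNA synthetases. They were measured after depletion of ZBP1 in the human myeloma cell lines MM1.S and H929. Being in the set does not show that ATF4 controls a gene. The set comprises 7 transcription factors, 7 stress effectors, 4 enzymes of amino acid metabolism, 8 amino acid transporters and 20 cytosolic tRNA synthetases. The members were taken by gene symbol with no threshold on a measured value, but the set was chosen with earlier results of these data known. All 46 were found among the 58051 genes of each deposited table. The synthetases carry older symbols in these tables (AARS for AARS1, for example), which are kept here.

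Both lines are established plasma cell tumour lines grown in RPMI medium with 10% FBS, and every group carried a lentiviral hairpin, the controls included. MM1.S cells received a scramble hairpin or anti-ZBP1 shRNA 1 or shRNA 2, with 2 libraries each. H929 cells received the same anti-ZBP1 hairpins, again with 2 libraries each, but each hairpin had a scramble group of 2 libraries of its own. Polyadenylated RNA was sequenced. The study asked how the transcriptome of these cells depends on ZBP1, a protein that binds left-handed DNA and RNA. Whether a group's 2 libraries are separate cultures is not in the labels. A p-value here therefore reflects library-to-library spread, which may be technical.

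Phosphorylation of the initiation factor eIF2, by kinases that sense amino acid shortage, unfolded protein, heme shortage or double-stranded RNA, lowers general translation and raises translation of ATF4 mRNA. ATF4 pairs with C/EBP proteins on composite elements and activates genes for amino acid import, amino acid synthesis and tRNA charging. DDIT3 (CHOP), ATF3, ATF5 and CEBPB are further factors of the pathway, while TRIB3 and CHAC1 are widely used readouts of it. Plasma cells secrete large amounts of immunoglobulin and depend on these supply pathways. Because ATF4 is controlled largely at translation, its mRNA level is not a measure of its protein, which was not measured.

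The C/EBP-ATF element was looked for in the promoters to show which members carry it. The motif was TGATGNAA on either strand, where N is any base, in the window from 250 bases before to 50 bases after each gene start in RefSeq (GRCh38.p14). Of the 40 members matched to a promoter, 11 held it (27.5%), against 1270 of 35116 promoters in all (3.62%). The form TGATGCAA was present in 7 of the 40 (17.5%) and in 0.866% of all promoters. A match is a description of the letters and does not show that a factor binds there. The windows of 7 members used in the results below are printed 5′ to 3′ on the gene's strand, with the motif or its reverse complement in capitals.
CHAC1 (chr15:40953242-40953289, plus strand): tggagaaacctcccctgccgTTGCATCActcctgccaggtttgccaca
ASNS (chr7:97872449-97872496, minus strand): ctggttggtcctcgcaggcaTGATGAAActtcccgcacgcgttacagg
ATF3 (chr1:212565196-212565243, plus strand): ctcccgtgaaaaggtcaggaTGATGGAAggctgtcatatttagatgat
SLC3A2 (chr11:62881725-62881748, plus strand): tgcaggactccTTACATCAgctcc
CARS (chr11:3057407-3057436, minus strand): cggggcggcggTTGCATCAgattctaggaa
IARS (chr9:92293698-92293730, minus strand): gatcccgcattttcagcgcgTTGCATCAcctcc
TARS (chr5:33440956-33440985, plus strand): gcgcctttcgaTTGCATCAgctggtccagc
The other 4 members with the motif were SLC7A1, AARS, MARS and NARS. ATF4 itself (chr22:39519695-39522685 in GENCODE 29), DDIT3, SLC7A5 and GARS had no match in this window.

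Depth, as reads assigned to genes, ran from 20461980 to 28419331 in MM1.S and from 15926867 to 22254348 in H929. In CPM, which are counts scaled to a common library size, the targeted gene ZBP1 was at 129.3 and 140.3 in MM1.S scramble, at 23.05 and 26.78 under shRNA1, and at 15.44 and 18.02 under shRNA2. The 4 H929 scramble libraries had 194.2 to 268 CPM, the shRNA1 pair 109.5 and 128.8, and the shRNA2 pair 75.14 and 69.2, so every knockdown library was below every scramble library of its line. All 9 plasma cell markers were detected in every library, with a summed level of 4094 to 7298 CPM in MM1.S and 7181 to 8469 CPM in H929. In MM1.S the sum was 7298 and 6786 CPM for scramble, 5702 and 5292 for shRNA1 and 4312 and 4094 for shRNA2. The 5 T and natural killer cell markers summed to at most 32.482 CPM, the 5 myeloid markers to at most 24.142 and the 5 stromal and epithelial markers to at most 115.842, with KRT19 at 0 in all libraries. Single genes moved with the hairpins. In H929 under shRNA1, PECAM1 had 1032 and 1376 reads (244 to 305 in scramble) and COL1A1 638 and 468 (5 to 18 in scramble). CD3E had 607 and 534 reads in H929 under shRNA2 (118 to 185 in scramble), and ITGAM 463 and 478 in MM1.S under shRNA1 (20 and 46 in scramble). PECAM1 had 67 and 66 reads in MM1.S under shRNA2 (896 and 834 in scramble). The part of these differences in the results was not tested. In bulk RNA, a smaller share of cells expressing a gene and less RNA per cell cannot be told apart.

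Levels compared per transcript length (CPM per kilobase of exon, RPKM, group means) placed ATF4 at 126 RPKM in the MM1.S scramble group, ahead of the glutamine transporter SLC1A5 at 109, EPRS at 98.5 and the neutral amino acid transporter SLC1A4 at 90.5. In H929, in the scramble group for shRNA1, ATF5 was at 194 RPKM, ATF4 at 181 and the leucine transporter SLC7A5 at 176. ATF5 was at 7.38 RPKM in the MM1.S scramble group, and STC2, a secreted glycoprotein, at 0.057 RPKM against 19.6 in that H929 group. The scale was set separately in each line, so these levels are a description. NUPR1, a stress-induced chromatin protein, had at most 3 reads in any library and was not tested, leaving 45 members tested in each comparison.

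**Figure D1:**
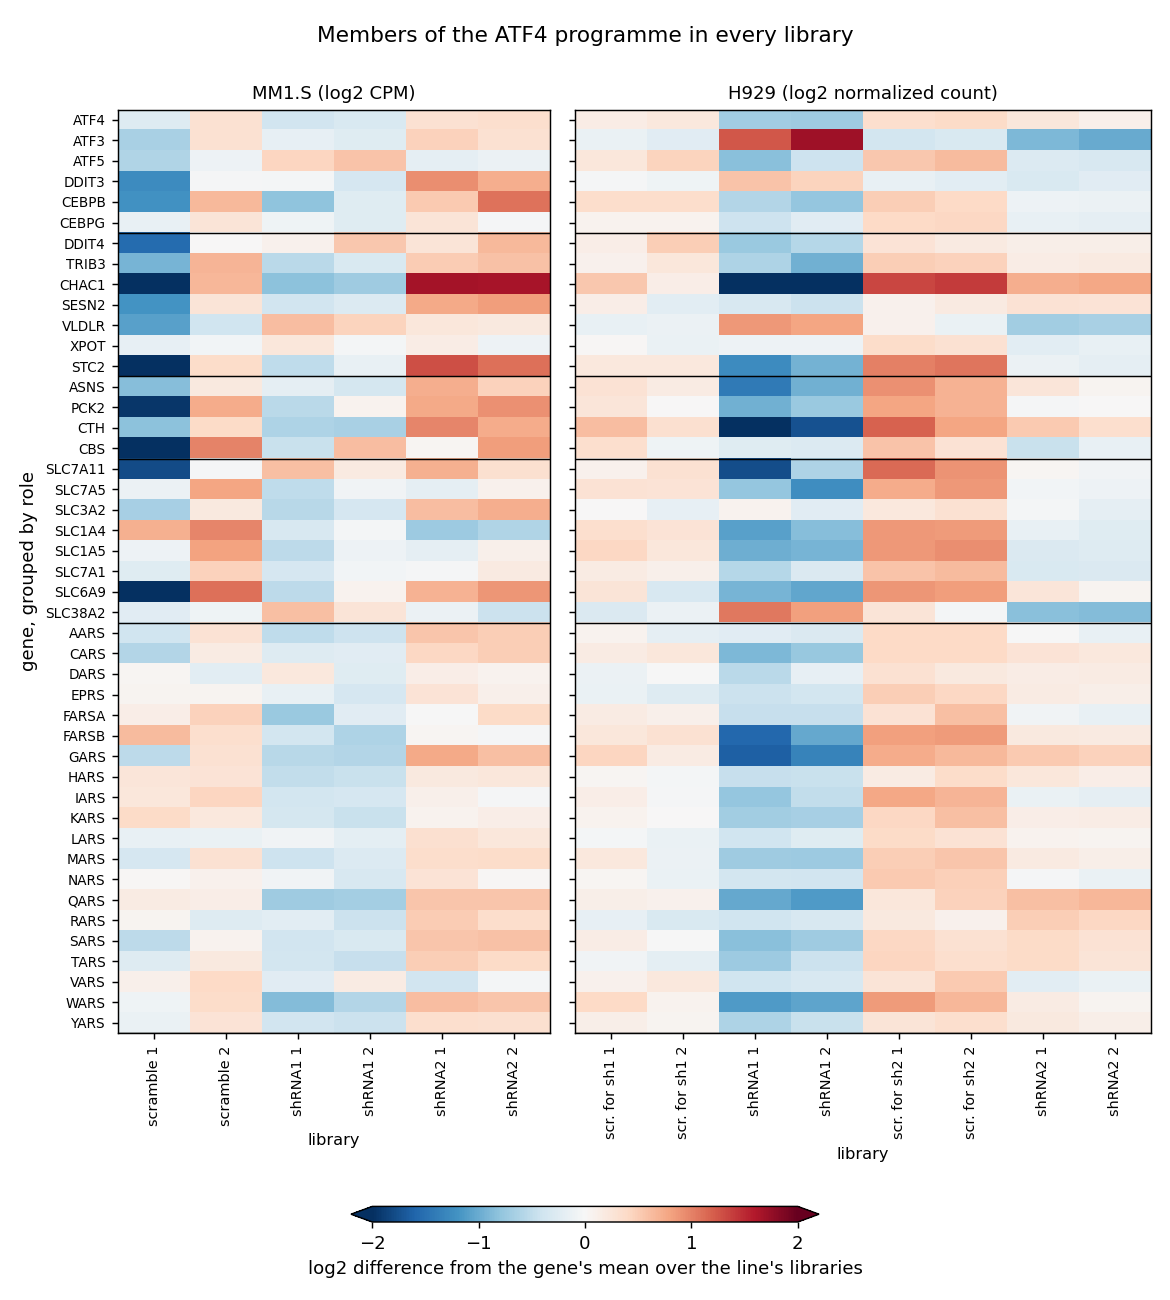
Each row is a member, grouped by role, and each column a library; colour gives the log2 difference from the gene's mean over the libraries of that line (CPM plus 0.1 in MM1.S, normalized count plus 1 in H929, colour limited to 2 either way). In MM1.S scramble replicate 1 is low for the stress effectors and amino acid enzymes while replicate 2 is not; in H929 the scramble libraries for shRNA2 are high and the shRNA1 libraries low for most rows.

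The 2 MM1.S scramble libraries differed from each other in many of these genes. CHAC1, a glutathione-degrading enzyme, was at 4.18 CPM in scramble replicate 1 and 36.9 in replicate 2. PCK2, a mitochondrial enzyme that makes phosphoenolpyruvate, was at 3.40 and 22.4 CPM, and the glycine transporter SLC6A9 at 5.67 and 56.9 CPM. These are ratios of 8.81, 6.60 and 10.0. CBS, the first enzyme of transsulfuration, had a ratio of 10.2 but only 9 reads in its lowest library. Over the 44 members with more than 3 reads in every library, replicate 2 was at least 1.5-fold above replicate 1 for 23, against 8.80% of all genes tested, and replicate 1 was at least 1.5-fold above replicate 2 for 0, against 4.94% of all genes. The median ratio was 1.53, and 38 of the 44 lay above 1. The shares of all genes cover every gene tested, without that read limit, and were taken with 0.1 CPM added to each value.

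The difference was unequal between roles. The median ratio of scramble replicate 2 to replicate 1 was 4.48 for the 4 enzymes, 2.84 for 6 stress effectors, 1.84 for the 8 transporters, 1.71 for 6 factors and 1.19 for the 20 synthetases. ATF4 was at 257 and 377 CPM, a ratio of 1.47, whereas QARS, at 198 and 193 CPM, and LARS, at 198 and 200.3 CPM, were nearly level. The knockdown pairs did not show it: the median ratio of replicate 2 to replicate 1 was 1.03 with shRNA1 and 0.992 with shRNA2, with 3 and 1 members at 1.5-fold or more. All genes were set beside the members where the mean normalized count was above 100. The median absolute log2 difference within the shRNA1 pair was then 0.189 for 43 members and 0.205 for all genes. It was 0.134 and 0.167 within the shRNA2 pair, and 0.589 and 0.213 within the scramble pair. Each MM1.S knockdown is therefore set against each scramble library as well as against both.

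Against both scramble libraries, MM1.S shRNA1 cells had lower levels of several synthetases and of SLC1A4, and higher ATF5, SLC38A2 and VLDLR. At a Benjamini-Hochberg adjusted p under 0.05 in edgeR's quasi-likelihood test, which is what a call means here for MM1.S, 3 of 45 members rose and 9 fell. Over all 17820 genes tested, 37.5% were called, 17.8% higher and 19.7% lower, so the number of calls among the members was not above the background. With the replicate number as a block, 5 members rose and 21 fell, against 28.4% and 30.9% of all genes. The block assumes the same replicate shift in every MM1.S group, which the members did not show. A pass with the block alone is therefore not firm. The median log2 fold change of the members was -0.29.

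Of the 20 synthetases, which charge tRNAs with their amino acids, 8 fell with shRNA1 (FARSA, FARSB, HARS, IARS, KARS, QARS, WARS and YARS) and 0 rose, with 0 at an unadjusted p under 0.05 and 0 in DESeq2. QARS was at 198 and 193 CPM with scramble and at 108 and 111 with shRNA1, a log2 fold change of -0.84 ± 0.11 (SE, adjusted p = 0.000846). FARSB, the beta subunit of the phenylalanyl enzyme, was at 158 and 129 CPM with scramble and 78.7 and 66.1 with shRNA1 (-0.99 ± 0.15, adjusted p = 0.00166). IARS was at 278 and 319 CPM with scramble and 184 and 188 with shRNA1 (-0.68 ± 0.12, adjusted p = 0.00386). In these 3 genes both shRNA1 libraries lay below both scramble libraries, as they did for 13 of the 20 synthetases and for 33.8% of all genes tested. YARS fell by 0.49 ± 0.15 (adjusted p = 0.0337), with 182 and 240 CPM against 153 and 148, and its call was lost against scramble replicate 1 alone (adjusted p = 0.179), without shRNA1 replicate 1 (0.127) or 2 (0.155), and without shRNA2 replicate 1 (0.0647) or 2 (0.063).

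Of the transporters, SLC1A4, which carries alanine, serine and cysteine, fell from 573 and 682 CPM to 280 and 341, 49.4% of the scramble mean (log2 fold change -1.02 ± 0.15, adjusted p = 0.00145). SLC38A2, a sodium-coupled transporter of neutral amino acids, rose from 255 and 281 CPM to 451 and 358 (0.59 ± 0.16, adjusted p = 0.0219), but not against scramble replicate 2 alone (0.52, adjusted p = 0.0729) or without shRNA1 replicate 1 (0.45, adjusted p = 0.115). SLC7A11, the cystine-glutamate exchanger, was at 11.7 and 39.7 CPM with scramble and 61.4 and 46 with shRNA1. Both knockdown libraries were above both controls, but the fold change of 1.06 ± 0.47 did not pass (adjusted p = 0.109), whereas with the block it did (1.11, adjusted p = 0.0273). SLC1A5 was at 252 and 473 CPM with scramble and 187 and 251 with shRNA1 (-0.72 ± 0.28, adjusted p = 0.0778; with the block -0.68, adjusted p = 0.000454).

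Among factors, ATF5 rose from 18.0 and 25.6 CPM to 36.8 and 40.6 (0.83 ± 0.18, adjusted p = 0.00886). ATF4 was at 234 and 249 CPM with shRNA1, below both scramble libraries, and did not pass (-0.39 ± 0.18, adjusted p = 0.119), though it did with the block (-0.37, adjusted p = 0.0102). DDIT3, at 7.08 and 16.8 CPM with scramble and 16.6 and 13.4 with shRNA1, lay between the controls. Of the stress effectors, VLDLR, a lipoprotein receptor induced by ATF4, rose from 4.34 and 7.04 CPM to 14.3 and 12.8 (1.25 ± 0.23, adjusted p = 0.0045). None of the 4 enzymes was called in edgeR's test, with 0 at an unadjusted p under 0.05 and 0 in DESeq2.

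The choice of scramble library turned much of the shRNA1 result. Against scramble replicate 1 alone, 13 members rose and 7 fell (13.8% and 16.3% of all genes), with a median log2 fold change of 0.01. Against replicate 2 alone, 2 rose and 26 fell (14.1% and 17.3% of all genes), with a median of -0.65. CHAC1, at 13.0 and 14.1 CPM with shRNA1, had a log2 fold change of 1.68 from replicate 1 and -1.45 from replicate 2. All 4 enzymes had both shRNA1 libraries between the scramble libraries, as did 14 of 44 members in all. The matching share of all genes was not counted. The calls that passed against each scramble library alone were ATF5 and VLDLR, higher, and SLC1A4, FARSB, HARS, IARS, KARS, QARS and WARS, lower. In these fits the lone scramble library is assumed to vary like the other groups.

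**Figure D2:**
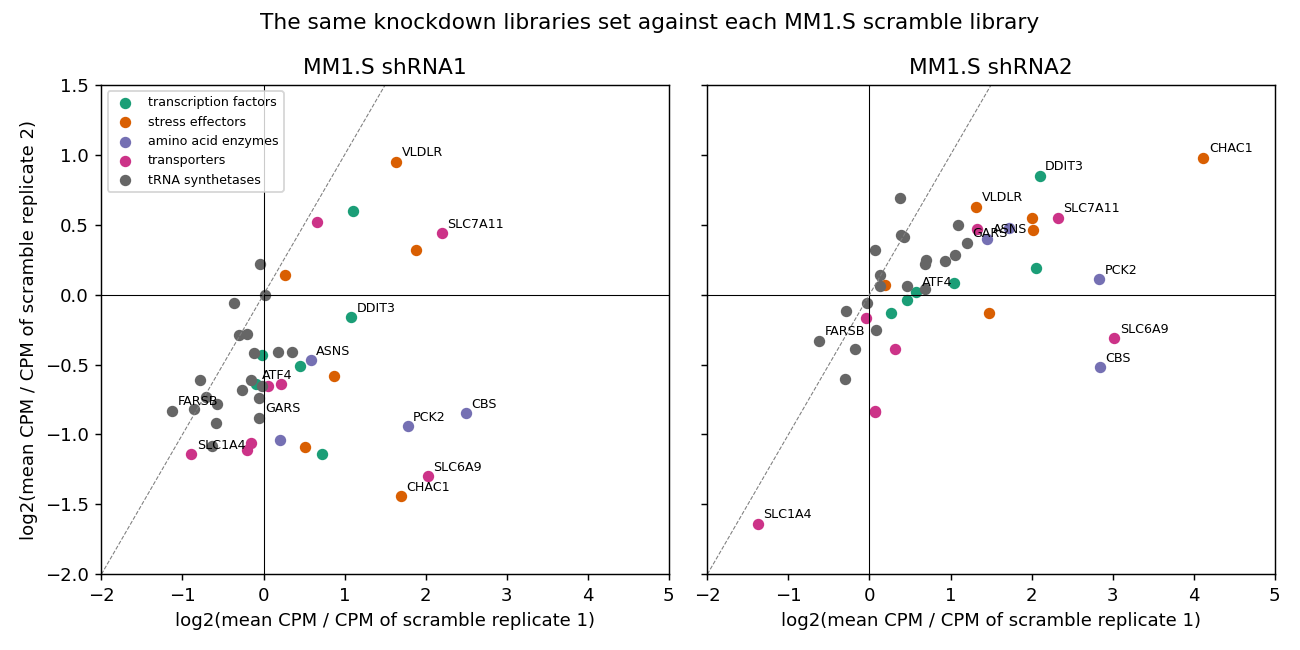
Each point is 1 of 44 members; the x axis gives the log2 ratio of the knockdown mean to scramble replicate 1 and the y axis the same to replicate 2, for shRNA1 (left) and shRNA2 (right), with the diagonal dashed. Points in the lower right quadrant are above one control and below the other: 15 members with shRNA1 and 9 with shRNA2. The matching shares of all genes were not counted.

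MM1.S shRNA2 cells had higher levels of several synthetases, DDIT3, VLDLR and SLC3A2, and lower SLC1A4 and FARSB. Of 45 members, 8 rose and 2 fell, against 14.9% and 21.7% of all genes tested (36.6% in either direction). With the block, 26 rose and 7 fell, against 26.8% and 32.0% of all genes. The members' median log2 fold change was 0.41. Against scramble replicate 1 alone 25 rose and 2 fell (11.5% and 18.4% of all genes), with a median of 0.68, and against replicate 2 alone 6 rose and 3 fell (10.8% and 18.6%), with a median of 0.11.

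DDIT3, a pro-apoptotic C/EBP-family factor, was at 32.4 and 28.1 CPM with shRNA2, above both scramble libraries (1.34 ± 0.34, adjusted p = 0.0185), and the call was lost without shRNA2 replicate 1 (adjusted p = 0.0804). DDIT3 and MARS lie on opposite strands and overlap, and whether the counts separate strands is not stated. ATF4 was at 377.7 and 388 CPM, against 257 and 377.5 with scramble (0.27 ± 0.18, adjusted p = 0.263; with the block 0.29, adjusted p = 0.0334). CEBPB was at 12.8 and 46.4 CPM with scramble and 42.8 and 63.2 with shRNA2 (0.84 ± 0.51, adjusted p = 0.228; with the block 0.98, adjusted p = 0.00371). ATF5 was at 24.3 and 25.3 CPM, within the range of the controls.

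CHAC1 was at 73.4 and 72.4 CPM with shRNA2, above both scramble libraries at 4.18 and 36.9. The fold change of 1.83 ± 0.72 did not pass with both controls (adjusted p = 0.0822), passed with the block (2.07, adjusted p = 0.00396), and was 4.12 against replicate 1 and 0.98 against replicate 2 alone. VLDLR rose to 11 and 10.7 CPM (0.93 ± 0.23, adjusted p = 0.0165). SESN2, an inhibitor of mTORC1 that senses leucine, was at 32.3 and 88.3 CPM with scramble and 125 and 133 with shRNA2 (1.10 ± 0.38, adjusted p = 0.0525; with the block 1.19, adjusted p = 0.00154). TRIB3, at 26.9 and 81.6 CPM with scramble and 73.0 and 76.4 with shRNA2, stayed between the controls. STC2 reads numbered 1 and 18 under scramble, then 32 and 29 under shRNA2, too few for a fold to be read.

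Asparagine synthetase, ASNS, was at 55.1 and 114 CPM with scramble and 164 and 137 with shRNA2 (0.83 ± 0.29, adjusted p = 0.0573; with the block 0.86, adjusted p = 0.00769). CTH, which releases cysteine from cystathionine, was at 3.05 and 7.19 CPM with scramble and 10.9 and 9.24 with shRNA2 (0.97 ± 0.35, adjusted p = 0.0604). PCK2 was at 22.8 and 25.6 CPM, close to scramble replicate 2 at 22.4 and far from replicate 1 at 3.40. Of the 4 enzymes, 0 were called in edgeR's test, with 2 at an unadjusted p under 0.05 and 2 called in DESeq2, and ASNS, CTH and PCK2 passed with the block.

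SLC3A2, the heavy chain shared by SLC7A5 and SLC7A11, rose from 197 and 358 CPM to 477 and 516 (0.84 ± 0.25, adjusted p = 0.0324). SLC1A4 fell to 210 and 229 CPM, 35.0% of the scramble mean (-1.52 ± 0.15, adjusted p = 0.000267). Its lower level held against either scramble library, -1.39 against replicate 1 and -1.64 against replicate 2. SLC7A11 was at 66.0 and 50.3 CPM (1.18 ± 0.47, adjusted p = 0.0835; with the block 1.21, adjusted p = 0.0174). Of the synthetases, GARS, LARS, QARS, RARS and SARS rose and FARSB fell. GARS went from 140 and 248 CPM to 338 and 304 (0.73 ± 0.24, adjusted p = 0.0448), and SARS from 56.7 and 85.5 to 119 and 122 (0.77 ± 0.19, adjusted p = 0.0143). RARS went from 83.6 and 67.6 to 114 and 104 CPM (0.53 ± 0.15, adjusted p = 0.0258), and FARSB from 158 and 129 to 105 and 100 (-0.48 ± 0.15, adjusted p = 0.0342).

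The calls that passed against each scramble library alone were DDIT3, CHAC1, SESN2, VLDLR and SARS, higher, and SLC1A4, lower. The counts rested on both shRNA2 libraries. Without shRNA2 replicate 1, 0 members were called higher and 1 lower in edgeR's test, and without shRNA2 replicate 2, 1 and 1. Calls over all genes dropped in the same fits, to 6.82% higher and 12.1% lower and to 7.25% and 13.4%. Without the filter on low counts 24 rose and 5 fell (8.93% and 11.6% of all genes), and DESeq2 gave 13 and 2 (13.3% and 19.3%).

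Setting the MM1.S hairpins against each other needs no scramble library as the reference. The SE and adjusted p still depend on the scramble libraries, because all MM1.S groups shared the same fit and its estimate of spread. Of 45 members, 23 were higher with shRNA2 than with shRNA1 and 3 were lower, against 16.4% and 20.4% of all genes (36.8% in either direction), with a median log2 difference of 0.67. With the block the counts were 31 and 4, against 28.7% and 29.6%. Of the 20 synthetases, 17 were higher, with a median of 0.69. QARS differed by 1.25 ± 0.11 (adjusted p = 0.000234), WARS by 1.30 ± 0.18 (adjusted p = 0.00131) and GARS by 1.25 ± 0.24 (adjusted p = 0.00537). CHAC1 differed by 2.43 ± 0.74 (adjusted p = 0.0358), CTH by 1.52 ± 0.36 (adjusted p = 0.0129) and ATF4 by 0.66 ± 0.18 (adjusted p = 0.0219). ATF5, SLC1A4 and SLC38A2 were lower with shRNA2 (-0.64, -0.50 and -0.70). QARS was the member that the hairpins moved in opposite directions from scramble, and SLC1A4 and FARSB fell and VLDLR rose with both. With either shRNA1 library or either shRNA2 library left out, 10 to 12 members were called higher (7.17% to 9.95% of all genes), and the calls of ATF4 and CHAC1 were lost in each of these 4 fits. Of the lower calls, those of ATF5 and SLC1A4 were lost in 3 of the 4 fits and that of SLC38A2 in 2. The hairpins also differ in the ZBP1 level they left, and that part was not tested.

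**Figure D3:**
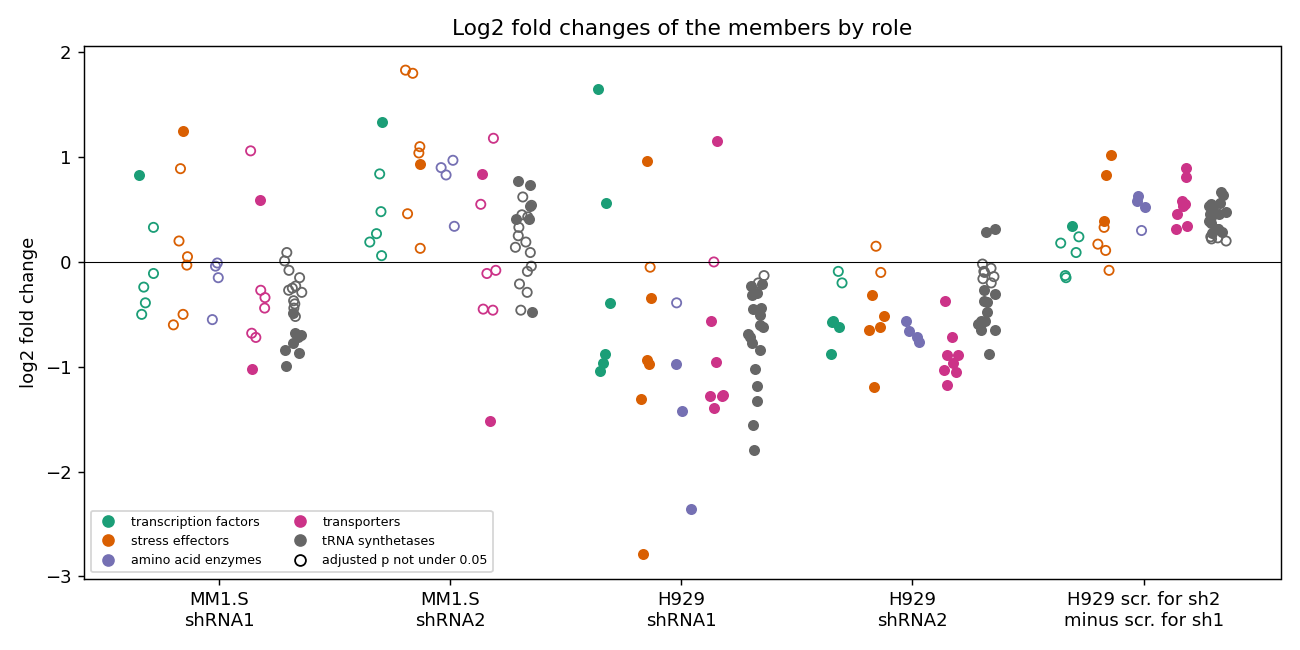
Log2 fold changes of the 45 tested members in 5 comparisons, coloured by role; filled points passed at an adjusted p under 0.05 and open points did not. In MM1.S the points lie on both sides of 0, in H929 most lie below it (medians -0.72 and -0.56), and between the H929 scramble groups 31 points lie above 0 and passed.

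In H929 the 2 scramble groups were not alike for these genes. H929 values are normalized counts, tested with limma on log2 of the value plus 1 at the same threshold, and fold changes are on that scale. The group for shRNA2 was above the group for shRNA1 for 31 of 45 members, against 16.8% of all genes, and below it for 0, with 0 at an unadjusted p under 0.05 as well, against 13.1% of all genes (29.9% in either direction). edgeR on the recovered reads gave 30 higher and 0 lower. The median log2 difference of the members was 0.39. All 8 transporters and 16 of the 20 synthetases were higher, with medians of 0.54 and 0.41, along with 3 of 4 enzymes, 3 of 7 stress effectors and 1 of 6 factors. The calls of SLC7A11 and SLC3A2 were each lost in 3 fits that left out 1 library, and that of SLC38A2 in 4 (adjusted p of 0.0544 to 0.354).

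CHAC1 stood at 918 and 694 in the scramble libraries for shRNA1 and at 1585 and 1659 in those for shRNA2 (1.02 ± 0.15, adjusted p = 0.00011). SLC6A9 stood at 516 and 344 against 799 and 771 (0.90 ± 0.15, adjusted p = 0.000387). EPRS stood at 5449 and 5027 against 8387 and 7986 (0.64 ± 0.08, adjusted p = 3.35e-05). ATF4, at 7362 and 7627 against 8323 and 8616, differed by 0.18 ± 0.08 and did not pass (adjusted p = 0.114). The labels tell these groups apart only by the hairpin each one serves.

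H929 shRNA1 cells had lower levels of most members. Of 45 members, 36 fell and 4 rose, against 27.7% and 25.7% of all 18213 genes tested (53.4% in either direction), and the members' median was -0.72. Against the scramble group for shRNA2 instead, 41 fell and 4 rose (32.4% and 31.3% of all genes), with a median of -1.05. The 36 lower and 4 higher genes passed against either scramble group. Leaving out any 1 library left 32 to 36 lower and 4 higher calls.

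ATF4 fell from 7362 and 7627 to 4096 and 4056, 54.4% of its scramble mean (-0.88 ± 0.08, adjusted p = 1.68e-07). CEBPB fell from 1813 and 1814 to 943 and 829 (-1.04 ± 0.09, adjusted p = 8.56e-08). ATF5 fell from 8755 and 10124 to 4168 and 5613 (-0.96 ± 0.12, adjusted p = 3.64e-06). ATF3 and DDIT3 went the other way. ATF3 rose from 334 and 311 to 869 and 1186 (1.65 ± 0.14, adjusted p = 5.31e-08), and DDIT3 from 226 and 218 to 345 and 313 (0.56 ± 0.13, adjusted p = 0.00144). For these factors the libraries of the groups did not overlap, but each was already called, so this adds no support to the calls.

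CHAC1 had the lowest fold change of the members, from 918 and 694 to 95.9 and 136 (-2.79 ± 0.15, adjusted p = 3.82e-10). TRIB3, a pseudokinase, fell from 435 and 481 to 268 and 211 (-0.94 ± 0.12, adjusted p = 8.64e-06). STC2 fell from 1969 and 1973 to 711 and 884 (-1.31 ± 0.10, adjusted p = 1.91e-08). VLDLR rose from 269 and 274 to 542 and 516 (0.96 ± 0.12, adjusted p = 5.79e-06). Among the enzymes, CTH fell from 298 and 240 to 46.3 and 57.1 (-2.36 ± 0.17, adjusted p = 1.12e-08) and ASNS from 2091 and 1913 to 637 and 871 (-1.42 ± 0.13, adjusted p = 1.05e-07). PCK2 fell from 1146 and 974 to 500.2 and 583 (-0.97 ± 0.10, adjusted p = 1.05e-06), and CBS did not pass (-0.39 ± 0.21, adjusted p = 0.137).

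Of the transporters 6 fell, 1 rose and 1 did not pass. SLC7A11 fell from 166 and 195 to 45.5 and 102 (-1.39 ± 0.26, adjusted p = 0.000252), SLC1A5 from 4730 and 4170 to 1796 and 1869 (-1.28 ± 0.08, adjusted p = 4.4e-09), and SLC1A4 from 2339 and 2233 to 876 and 1028 (-1.27 ± 0.09, adjusted p = 1.24e-08). SLC38A2 rose from 1945 and 2201 to 4964 and 4223 (1.15 ± 0.11, adjusted p = 2.07e-07). SLC3A2, at 5761 and 5081 with scramble and 5995 and 4865 with shRNA1, overlapped its controls. Of the 20 synthetases 18 fell, and AARS and RARS did not pass. GARS fell from 6173 and 5158 to 1476 and 1813 (-1.79 ± 0.11, adjusted p = 1.25e-09), FARSB from 1426 and 1507 to 409 and 599 (-1.56 ± 0.13, adjusted p = 5.37e-08) and QARS from 3271 and 3204 to 1482 and 1369 (-1.18 ± 0.09, adjusted p = 2.44e-08). EPRS had the smallest called change (-0.21 ± 0.08, adjusted p = 0.0439), and leaving out scramble replicate 1 ended its call (adjusted p = 0.25), as did leaving out shRNA1 replicate 1 (0.142) or either shRNA2 library (0.084 each).

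H929 shRNA2 cells were below their own scramble group for most members, and this depended on that group. Of 45 members, 32 fell and 2 rose, against 25.0% and 18.0% of all genes (43.0% in either direction), with a median of -0.56. Against the scramble group for shRNA1, an alternative chosen after seeing the data, 11 fell and 7 rose (21.9% and 17.6% of all genes), with a median of -0.08. The members called against either group were ATF3, ATF5, CEBPB, VLDLR, STC2, SLC7A5, SLC1A4, SLC1A5, SLC7A1, SLC38A2 and VARS, lower, and QARS and RARS, higher.

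ATF4 was at 7696 and 7078 with shRNA2, a fold change of -0.20 ± 0.08 from its own scramble group (adjusted p = 0.0588). ATF5 fell from 10773 and 11548 to 6142 and 5960 (-0.88 ± 0.12, adjusted p = 1.75e-05). ATF3 fell from 283 and 297 to 195 and 181 (-0.62 ± 0.14, adjusted p = 0.00165), whereas DDIT3, at 208 and 199 against 186 and 196, did not pass (-0.09 ± 0.13, adjusted p = 0.591). The secreted protein gene STC2 and CHAC1 both fell. STC2 fell from 3417 and 3578 to 1571 and 1504 (-1.19 ± 0.10, adjusted p = 1.55e-07). CHAC1 fell from 1585 and 1659 to 1040 and 1076 (-0.62 ± 0.15, adjusted p = 0.00334), but those levels are above the scramble libraries for shRNA1, and against them the fold change was 0.41 (adjusted p = 0.0398). TRIB3 had a fold change of -0.32 (adjusted p = 0.0498), a call lost on leaving out any 1 library of either group (adjusted p of 0.129 to 0.203).

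All 8 transporters and all 4 enzymes fell against the scramble group for shRNA2. Leaving out scramble replicate 1 (adjusted p = 0.18) or shRNA2 replicate 2 (0.129) ended the CTH call, and leaving out scramble replicate 2 (0.0838) or shRNA2 replicate 2 (0.117) that of SLC3A2. SLC1A5 fell from 6493 and 6749 to 2908 and 2958 (-1.17 ± 0.08, adjusted p = 3.28e-08), and SLC1A4 from 3373 and 3341 to 1674 and 1569 (-1.05 ± 0.09, adjusted p = 2.61e-07). SLC38A2, which rose with shRNA1, fell from 2836 and 2319 to 1335 and 1306 (-0.96 ± 0.11, adjusted p = 3.34e-06). These 3 also fell against the other scramble group, by 0.60, 0.50 and 0.65. SLC7A11 fell from 345 and 293 to 162 and 149 (-1.03 ± 0.26, adjusted p = 0.00427), with -0.21 against the other group (adjusted p = 0.552), and leaving out scramble replicate 1 ended its call (adjusted p = 0.0643). ASNS fell from 3208 and 2770 to 2008 and 1777 (-0.66 ± 0.13, adjusted p = 0.000541), with -0.08 against the other group (adjusted p = 0.641). None of the 4 enzymes passed against that group in limma.

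Of the synthetases, 11 fell and 2 rose. IARS fell from 6686 and 6254 to 3585 and 3458 (-0.88 ± 0.10, adjusted p = 3.09e-06). RARS rose from 2455 and 2294 to 3021 and 2886 (0.31 ± 0.09, adjusted p = 0.00799) and QARS from 3498 and 4129 to 4540 and 4758 (0.29 ± 0.09, adjusted p = 0.0178). Without shRNA2 replicate 1 neither was called, and without scramble replicate 2 the RARS call was lost (adjusted p = 0.0654). Against the other scramble group 5 synthetases rose and 1 fell, and EPRS changed from -0.31 to 0.34. ATF3, VLDLR, SLC38A2 and QARS were the 4 members that the hairpins moved in opposite directions in H929, and 25 fell with both. Each hairpin is here set against its own scramble group, and the matching shares of all genes were not counted. The 25 depend on the scramble group for shRNA2, against which 32 members fell with shRNA2, while 11 fell against the other group.

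The hairpin effects in H929, each from its own scramble group, differed for 25 members. The shRNA2 effect was higher for 20 and lower for 5, against 20.0% and 21.9% of all genes (41.8% in either direction). CHAC1 differed by 2.18 ± 0.21 (adjusted p = 8.17e-07), CTH by 1.80 ± 0.24 (adjusted p = 2.06e-05) and GARS by 1.59 ± 0.15 (adjusted p = 6.24e-07). QARS differed by 1.47 ± 0.13 (adjusted p = 3.09e-07). The effect of shRNA2 was lower for ATF3 (-2.28 ± 0.19, adjusted p = 2.18e-07), SLC38A2 (-2.10 ± 0.15, adjusted p = 4.53e-08) and VLDLR (-1.61 ± 0.17, adjusted p = 2.12e-06), and also for DDIT3 and XPOT, the exporter of tRNAs from the nucleus. Of the transporters, SLC38A2 was the one for which the effects differed. The difference of effects carries the difference between the scramble groups.

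**Figure D4:**
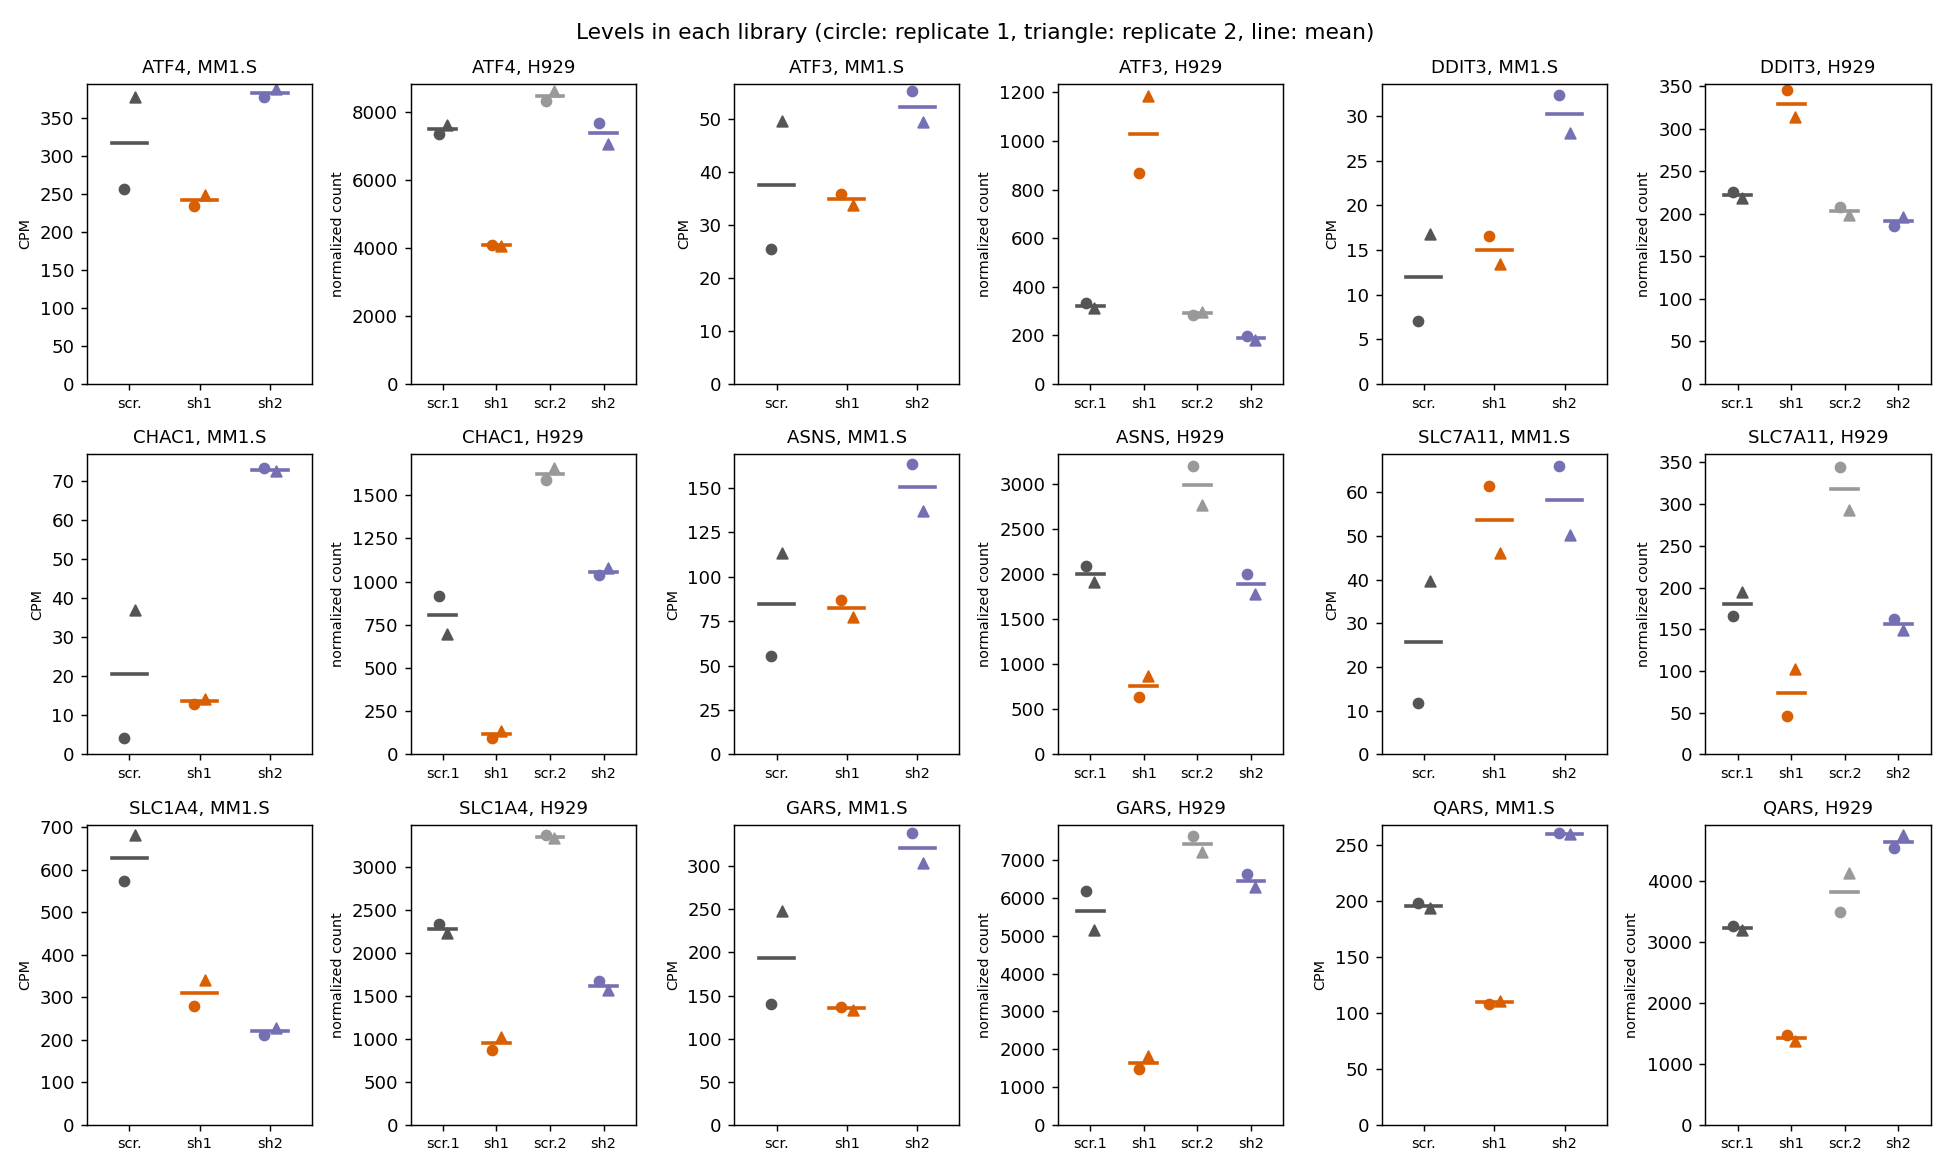
Levels of 9 members in every library, in CPM for MM1.S and in normalized counts for H929, on axes from 0; circles are replicate 1, triangles replicate 2 and lines the mean, with scr.1 and scr.2 the H929 scramble groups for shRNA1 and shRNA2. CHAC1 shows the gap between the MM1.S controls (4.18 and 36.9 CPM), and QARS lies lower with shRNA1 and higher with shRNA2 in both lines.

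The effect of a hairpin was compared between the lines in 1 limma fit of all 14 libraries over 20370 genes. For shRNA1 the effect was higher in MM1.S than in H929 for 9 members and lower for 1, against 10.4% and 11.0% of all genes (21.4% in either direction). With the block these were 16 and 2, against 3057 and 3343 of all 20370 genes. For shRNA2 it was higher for 22 and lower for 0, with 1 lower at an unadjusted p under 0.05, against 4.34% and 5.41% of all genes (9.75% in either direction), and with the block 31 and 1 (9.46% and 9.44%). Against the other H929 scramble group in each case, the counts were 26 higher and 1 lower for shRNA1 (12.4% and 11.7% of all genes) and 6 higher and 1 lower for shRNA2 (9.02% and 11.3%). Without MM1.S scramble replicate 2, the higher counts were 23 for shRNA1 and 35 for shRNA2, against 11.1% and 5.40% of all genes. The shRNA2 count fell to 6 without MM1.S shRNA2 replicate 1, to 6 and 8 without H929 scramble replicate 1 or 2 of its group, and to 8 and 4 without H929 shRNA2 replicate 1 or 2. In these 5 fits 1.60% to 2.48% of all genes were higher.

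ATF3 differed in opposite directions: the MM1.S effect was below that of H929 by -1.68 ± 0.33 for shRNA1 (adjusted p = 0.00296) and above it by 1.20 ± 0.33 for shRNA2 (adjusted p = 0.0366). The shRNA2 call of ATF3 was lost in 9 of the fits that left out 1 library (adjusted p of 0.0545 to 0.124). ATF5 was higher in MM1.S with both hairpins, by 1.81 ± 0.22 (adjusted p = 0.000148) and 1.11 ± 0.22 (adjusted p = 0.00911). ATF3 and ATF5 were the members called with both hairpins whichever H929 scramble group was used. SLC3A2 differed with shRNA2, by 1.29 ± 0.29 (adjusted p = 0.016), a call lost without H929 scramble replicate 2 of that group (0.0617) or H929 shRNA2 replicate 2 (0.0723). SLC1A4, which fell in all 4 hairpin comparisons, did not pass for either hairpin from its own scramble group (0.25 and -0.44), though the shRNA2 value passed with the block (-0.44, adjusted p = 0.0207). It passed in opposite directions against the other H929 scramble group, at 0.80 for shRNA1 (adjusted p = 0.00419) and -1.0 for shRNA2 (adjusted p = 0.00123).

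Genes of related pathways, from lists made with earlier results of these data known, were read alongside. The 9 genes of serine synthesis and one-carbon metabolism all fell in H929 with shRNA1 (median -1.91) and with shRNA2 (median -1.01). Of all genes, 27.7% and 25.0% fell. All 9 were higher in the scramble group for shRNA2 than in that for shRNA1 (median 0.68), against 16.8% of all genes. Against the scramble group for shRNA1, 4 of the 9 fell with shRNA2 (median -0.29), beside 21.9% of all genes. PHGDH, the first enzyme of serine synthesis, went from 1015 and 776 to 117 and 145 with shRNA1, a fold change of -2.76. In MM1.S 5 of the 9 fell with shRNA1 and 2 with shRNA2, against 19.7% and 21.7% of all genes. The shRNA2 count was near that background. Against scramble replicate 1 alone the PHGDH fold change was 0.11 with shRNA1 and 1.35 with shRNA2. Against replicate 2 alone it was -1.39 and -0.15. SHMT1 had the lowest called fold change with both hairpins (-1.78 and -1.93). PHGDH showed the gap between the MM1.S scramble libraries too, at 32.6 and 92.1 CPM, whereas SHMT1 was nearly level, at 45.2 and 46.6 CPM.

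A further list held 14 genes for the eIF2 kinases, eIF2, its exchange factor and its phosphatase subunits. In MM1.S, shRNA1 gave 1 higher and 7 lower calls and shRNA2 gave 1 and 4. In H929 the calls were 3 higher and 8 lower for shRNA1, while for shRNA2 there were 6, each of them lower. Over all genes, calls in either direction were 37.5% and 36.6% for the MM1.S hairpins and 53.4% and 43.0% for those in H929. The list's 5 of 14 for MM1.S shRNA2 and 6 of 14 for H929 shRNA2 were near that background. EIF2AK2, the double-stranded RNA kinase PKR, fell in H929 from 2677 and 3141 to 1201 and 1293 with shRNA1 (-1.22) and from 2046 and 1574 to 917 and 846 with shRNA2 (-1.03). In MM1.S it fell with shRNA2, from 124 and 96.4 CPM to 57.9 and 50.5 (-1.02). EIF2AK3, the endoplasmic reticulum kinase PERK, rose in H929 with shRNA1, from 6323 and 6046 to 12225 and 10650 (0.88).

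The 17 mitochondrial tRNA synthetases are encoded by separate genes. In MM1.S there were 8 calls for shRNA1, each of them lower, and for shRNA2 9 were lower and 1 higher. In H929, shRNA1 gave 9 lower and 2 higher calls and shRNA2 gave 7, each of them lower. Of all genes, 19.7% and 21.7% were lower in MM1.S and 27.7% and 25.0% in H929. The 7 calls of 17 for H929 shRNA2 were near the 43.0% of all genes called in either direction. WARS2 fell with shRNA2 in both lines, with fold changes of -2.01 in MM1.S and -1.89 in H929. Of 12 genes of the other branches of the unfolded protein response, MM1.S shRNA1 moved 1 up and 5 down, and the 7 called for shRNA2 were lower. H929 shRNA1 moved 6 up and 2 down, and the 8 called for shRNA2 were lower. The shares of all genes called were 37.5% and 36.6% in MM1.S and 53.4% and 43.0% in H929. DNAJB9, a chaperone gene of the IRE1 branch, rose with shRNA1 in both lines, by 1.5 in MM1.S and 1.15 in H929.

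The calls were also counted for members with and without the promoter motif. Of the 11, 8 fell and 1 rose in H929 with shRNA1 (median -0.56), against 23 lower and 3 higher of the 29 matched members without it (median -0.94). Of all genes, 27.7% fell and 25.7% rose. With shRNA2 in H929, 9 of the 11 fell (median -0.59) and 20 of the 29 fell (median -0.56), beside 25.0% of all genes. These calls are against the scramble group for shRNA2. Against the other scramble group, 11 of all the members tested fell in place of 32. Between the H929 scramble groups, 9 of the 11 and 19 of the 29 were higher in the group for shRNA2, beside 16.8% of all genes. In MM1.S 8 of the 11 and 13 of the 29 were higher with shRNA2 than with shRNA1, beside 16.4% of all genes. Those with the motif that did not fall with shRNA1 in H929 were ATF3, which rose, and SLC3A2 and AARS, which did not pass. The difference between members with and without the motif was not tested.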

How the data were processed

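RNA was measured in 14 libraries (7 groups of 2). Per the submitters' processing notes, STAR 2.5.3a and DESeq2 1.24.0 were used on GRCh38 (hg38); the counting tool, annotation and strand setting are not given in the sources used here. The deposited MM1.S table holds whole read counts. The deposited H929 table is named as raw counts but holds a normalized signal: the authors divided counts by 1 size factor per library, and 100% of values times that factor were whole within 0.01 reads. The authors also deposited log2 fold changes and adjusted p-values for each hairpin, per the file headers; these were used to check which columns belong to which group, and the median absolute log2 difference from fold changes recomputed here was 0.00412 to 0.0121. Of 58069 rows, 18 repeated identifiers were left out. The H929 columns of shRNA2 and of 1 library of the scramble group for shRNA1 took the labels left over once the other columns were matched.

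For MM1.S the test was edgeR 4.0.16 (quasi-likelihood, TMM, minimum count 10, 6 libraries in 1 fit; CPM use TMM library sizes, except for ZBP1 and the markers, where reads in genes were used). For H929 it was limma 3.58.1 with a trend, fitted to log2(value + 1) of the deposited values, for genes at 10 or more in at least 2 libraries and all 8 libraries in 1 fit. Effects were compared between lines with limma, with MM1.S counts divided by median-of-ratios factors. Benjamini-Hochberg adjustment was over all genes tested. The SE given for MM1.S was derived from the test, as the absolute log2 fold change over the square root of the F statistic. edgeR on the recovered H929 reads called 4955 genes higher and 4980 lower for shRNA1, and 3739 and 4283 for shRNA2. MM1.S libraries with the same number deviated together (correlations 0.578 to 0.782 over 11027 genes), so the block is given for them; H929 libraries did not (-0.176 to 0.207), and the labels do not say what the numbers mean. The 2 MM1.S scramble libraries' difference in the members was not shared by the knockdown pairs, so the block does not describe it.

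The members, the gene lists and their roles were chosen with earlier results of these data known. Named genes were the highest and lowest called member per role in each comparison with a scramble, and ATF4, DDIT3, ASNS and SLC7A11; other members named are exceptions chosen after their values were seen, as are CHAC1 and QARS in the comparisons where the rule does not name them. For other lists the highest and lowest called gene per line could be named; PHGDH in MM1.S was named after its values were seen. RPKM used GENCODE 29 exon lengths. In GENCODE 29, 29 members overlap another gene, 24 of them on the opposite strand, and 12 have a named pseudogene, so reads may be shared. The tests were checked on simulated counts in which the libraries of a group had the same expected level apart from depth. That setting lacks the difference between the MM1.S scramble libraries, so it does not show how the tests behave under it. Alternatives were other scaling, DESeq2 1.42.0, other pseudocounts, no filter, the compared groups only, the block, each library left out and, added after seeing the data, the other H929 scramble group.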

Additional observations from a re-analysis of the deposited data

Results flagged for a closer look

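The effect of a hairpin differed between the lines, by limma's test of the difference itself, for 10 of 45 members with shRNA1 and for 22 with shRNA2. Over all genes the share was 21.4% for shRNA1, so the count for that hairpin was at the background, and 9.75% for shRNA2. The 9 genes below differed with both hairpins, and the share of all genes that did so was not counted. Values are the log2 effect in MM1.S minus that in H929, with each H929 hairpin set against its own scramble group. Both hairpins share the MM1.S scramble libraries, so their tests are not independent.

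For the factors, ATF3 differed by -1.68 with shRNA1 and 1.20 with shRNA2, and ATF5 by 1.81 and 1.11. CHAC1 differed by 2.91 with shRNA1 and 3.18 with shRNA2. Of the enzymes, ASNS differed by 1.47 and 1.60, and CTH by 1.94 and 1.67. SLC7A11 differed by 2.69 and 2.46. Among the synthetases, CARS differed by 0.99 and 0.84, GARS by 1.32 and 1.00 and SARS by 0.72 and 0.83. For shRNA2, 7 of these 9 calls were lost against the other H929 scramble group, all but ATF3 and ATF5. Many calls also rested on single libraries. Among the fits that left out 1 library, the CHAC1 call was lost in 10 for shRNA1 (adjusted p of 0.0505 to 0.117) and in 10 for shRNA2 (0.059 to 0.124). For shRNA1 the SARS call was lost in 4 and the ASNS call in 1. For shRNA2 the calls of ATF3 and GARS were each lost in 9, SARS in 6, CTH and SLC7A11 in 5 and ASNS in 3.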

How the results depend on the processing

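Among values of single genes over all alternatives, 2717 kept their direction and side of the threshold, 236 lost a call, 157 gained one and 10 turned. For shRNA1 in MM1.S without scramble replicate 2, CHAC1 turned from -0.60 to 1.68, ASNS from -0.04 to 0.57 and PCK2 from -0.15 to 1.77; without scramble replicate 1 they were -1.45, -0.47 and -0.95. Against the other scramble group, the H929 shRNA2 values turned to 0.01 for TRIB3, 0.41 for CHAC1, 0.34 for EPRS and 0.27 for SARS; the line difference turned to 0.55 (shRNA1) and -0.18 (shRNA2) for EPRS and to -0.06 for IARS (shRNA2). The cause was not tested.

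Counts of called members moved as follows. Without the filter on low values, MM1.S shRNA1 gave 5 higher and 19 lower (9.92% and 11.1% of all genes). In that setting MM1.S shRNA2 gave 24 and 5 (8.93% and 11.6%), H929 shRNA2 1 higher (6.33%), and the shRNA2 line difference 9 higher (1.16%). With the replicate block, that is pairing by number, MM1.S shRNA1 gave 5 higher and 21 lower, MM1.S shRNA2 26 and 7, the line difference 16 higher and 2 lower for shRNA1 and 1 lower for shRNA2; in H929, where the numbers do not pair the libraries, the block moved no count by over 1.5 times. DESeq2 gave 13 higher for MM1.S shRNA2, against 13.3% of all genes. Against the other H929 scramble group, H929 shRNA2 gave 7 higher and 11 lower (17.6% and 21.9% of all genes). The line difference was then 26 higher for shRNA1 (12.4%) and 6 higher and 1 lower for shRNA2 (9.02% and 11.3%).

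Leaving out each library in turn gave 2 to 13 higher and 7 to 26 lower for MM1.S shRNA1, 0 to 25 and 1 to 3 for MM1.S shRNA2, and 10 to 30 and 0 to 3 for shRNA2 against shRNA1 in MM1.S. It gave 4 higher and 32 to 36 lower for H929 shRNA1, 0 to 2 and 26 to 33 for H929 shRNA2, 14 to 23 and 5 to 8 for the difference of the H929 effects, and 22 to 36 and 0 between the H929 scramble groups. For the line difference it gave 6 to 23 higher and 1 to 4 lower with shRNA1, and 4 to 35 and 0 with shRNA2. The low end of the shRNA2 line difference was without H929 shRNA2 replicate 2. Calls over all genes moved in these fits as well. The difference of the H929 effects uses all 4 groups, so a fit of the compared groups only is the same fit. The number of libraries (2 a group) and the depth both limit precision.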
